A study of Mus musculus with 6 samples.

Results

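The resting transcriptome of bone marrow-derived macrophages was compared between wild-type mice and mice lacking IκBβ, from the pair of arrays taken at 0 h, before any lipopolysaccharide (LPS). These are 2 of the 6 arrays of a study that followed both genotypes through 0, 1 and 5 h of LPS at 1 µg/ml, with 1 Affymetrix Mouse Genome 430A 2.0 array for each genotype and time. All 6 samples are labelled as strain C57BL/6J. Marrow cells that had not adhered overnight were differentiated in medium conditioned by L929 cells, a fibroblast line that secretes macrophage colony-stimulating factor. The labels do not name the knockout allele, the age or sex of the mice, or say that different arrays came from different animals. The members were chosen from the 11957 autosomal genes measured, of 12369 genes in all, as the 5691 with a signal of at least 200 on at least 1 of the resting arrays. Signals are linear MAS5 intensities, and 200 lies above the median of either array (113 in wild type and 117 in knockout). Differences are given as log2 of knockout minus wild type, so a value below 0 means a lower signal in the knockout. With 1 array a genotype, no difference at rest has a replicate check and none carries a p-value.

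IκBβ, encoded by Nfkbib, is one of the inhibitory proteins that bind NF-κB dimers and keep them out of the nucleus until a stimulus such as LPS leads to its degradation. It can also bind NF-κB on DNA after it is newly made. Macrophages take up particles and lipids, digest them in lysosomes, and at rest depend on macrophage colony-stimulating factor acting through Csf1r. They transcribe complement, lipoprotein and scavenger receptor genes before any microbial signal arrives.

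At rest Nfkbib itself had a wild-type signal of 477 and a knockout signal of 30.5, a difference of −3.97 that makes the knockout signal 15.6-fold lower. Its signal at 1 h was 3329.8 in wild type and 136 in knockout, and at 5 h it was 5007 and 56.1. The knockout array was the lower of the pair at every time. Nfkbib is read by a single probe set, of a kind that can hybridize to several transcripts. No source used here places the probes inside or outside the deleted stretch.

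The arrays also differ in sex. Xist, which silences one X chromosome in female cells, had a resting signal of 52.1 in wild type and 5634 in knockout, and the Y-linked Eif2s3y read 799 and 3.27. Genotype and sex therefore cannot be told apart, and this holds for every autosomal difference given here. The ratio of 3′ to 5′ control probe sets, a sign of RNA integrity, was 1.12 in wild type and 1.09 in knockout for actin, and 0.747 and 0.724 for Gapdh.

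The cells read as macrophages on both arrays. Csf1r had a signal of 17705 in wild type and 16390 in knockout, Adgre1 (F4/80) 15720 and 14056, and Cd68, a lysosomal membrane glycoprotein, 14699 and 13151. Cd14, the LPS co-receptor, read 11290 and 10304, Lyz2 (lysozyme) 16600 and 14694, and Fcgr1, the high-affinity IgG receptor, 3142 and 3705. Itgam (CD11b) read 2485 and 2926, and Mertk, a receptor for apoptotic cells, 1955 and 1950. All 8 defining markers were therefore well above 200 in both genotypes. In bulk RNA, fewer cells of a type and less RNA per cell cannot be told apart.

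Markers of other cells were mostly dim, where 5691 of all 11957 autosomal genes measured reached 200. Of 11 B cell markers measured, 3 reached 200, led by Ighm (3371 in wild type and 3571 in knockout), while Cd79a, Ms4a1 and Pax5 were under the floor of 18.2 on both arrays. The floor is the 25th percentile of all values, and lower signals were set to it before taking log2. Of 15 T and NK cell markers, 1 reached 200 (Il7r, 3055 and 3120), with Cd3e and Cd3d under the floor. The summed signal was 6706 in wild type and 6953 in knockout for the B cell list, and 3371 and 3330 for the T and NK list. Of 15 neutrophil markers, 3 reached 200, with a summed signal of 4619 and 5299. Among them Mmp8, a neutrophil collagenase, read 1467 and 2248, whereas the granule genes S100a9 and Ltf were under the floor on both arrays. For fibroblasts, 1 of 16 markers reached 200 (Acta2, 380.4 and 372), and the list summed to 804 and 754. For mast cells and basophils, 0 of 11 did, and the sum was 158 and 275. Erythroid and megakaryocyte markers had 1 of 7 (Pf4, 11762 and 11460.5), and dendritic cell markers 2 of 9, Itgax (560.3 and 430.2) and Cd1d1 (441 and 441). The part of other cells in the differences given below was not tested.

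The brightest transcripts of the resting macrophage were those of lysosomes, ribosomes, iron storage and the cytoskeleton. Signals of different probe sets depend on their probes as well as on RNA, so an order by brightness describes signal and not amount of RNA. Psap, the precursor of the saposins that help degrade sphingolipids, led the mean of both arrays with 21990 in wild type and 19640 in knockout. Ctsb, the lysosomal protease cathepsin B, read 21988 and 19511. Fth1, the heavy chain of ferritin, read 21581 and 19892. Akr1a1, an aldehyde reductase, read 21952 and 19149, and the membrane protein gene Itm2b 20678 and 18683. Gpnmb, a transmembrane glycoprotein of macrophage endosomes, read 20026 and 18585. All of these differ by less than 1.2-fold between the genotypes.

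Products of the translation machinery made up a large part of the brightest 25 genes. Rps29 read 21889 and 19723, and Rpl38, Rps28, Rps10, Rplp2, Rplp0, Rps3a1 and Rps14, which also encode ribosomal proteins, lay between 15576 (Rps14 in knockout) and 21254 (Rpl38 in wild type). Eef1a1, the factor that carries aminoacyl-tRNA to the ribosome, read 19972 and 18299.9, and Tpt1, a growth-related protein, read 18785 and 18824. Tpt1 was the only gene of the 25 whose knockout signal was the higher at the deposited scale.

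The remaining genes of the brightest 25 include products that mark the macrophage. Lyz1, a lysozyme whose transcript is nearly identical to that of Lyz2 so that signal may be shared between them, read 19118 and 17501. Tyrobp (DAP12), the signalling adaptor of several activating receptors, read 18107 and 16001, and Clec4d, a C-type lectin, 17432 and 16320.3. Fabp5, a fatty acid carrier, read 18082 and 15653, and Selenop, the selenium transport protein, 17982 and 16343. Ifitm3, which restricts virus entry, read 18254 and 16837, and H2-K1, a class I heavy chain, 17053 and 16374. Actb, cytoplasmic actin, read 18400.3 and 16383. Each of these genes differed by less than 1.2-fold between the genotypes.

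The 25 brightest genes carried 5.30% of the summed autosomal signal in wild type and 4.96% in knockout, and the 100 brightest carried 17.1% and 15.9%. Of the 100 brightest in each genotype, 96 were shared, which is 96% of each list. An exact Clopper-Pearson 95% interval, which treats the 100 genes as independent draws, ran from 90.1% to 98.9%. The genes share the same arrays and are not independent draws, so it does not measure variation between arrays or mice. The 4 found in the wild-type list alone were Apoe, Cd36, Rab8b and Rps15, and the 4 of the knockout list alone were Cd74, Rap1b, Rps9 and Serinc3. Ribosomal proteins accounted for 29 of the 100 brightest on the mean of both arrays. At the deposited scale 98 of these 100 were lower in the knockout, with a median difference of −0.14. That direction rests on the scaling, since with quantile normalization 36 of the 100 were lower and the median was 0.01, whereas with both arrays centred on a common median 100 were lower and the median was −0.18.

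Across all 5691 genes the resting arrays were close to each other. The Pearson correlation of log2 signals was 0.989 and the Spearman correlation 0.987, over genes that share 2 libraries and are not independent replicates. The SD of the difference was 0.22 with a median of 0.00, and 4805 genes (84.4%) lay within 1.2-fold. Spread depended on brightness. Its SD was 0.54 for the 154 genes with a mean signal under 200, 0.24 for the 1948 between 200 and 500, 0.19 for the 2519 between 500 and 2000, and 0.14 for the 886 between 2000 and 8000. Above 8000 the SD was 0.16 for 184 genes, whose median was −0.12. Genes with a mean under 200 were compared only where 1 signal reached 200 and the other did not. That choice by itself widens their spread, so 0.54 is not the noise of dim genes alone. They hold 5 of the 12 genes that were 2-fold apart and 25 of the 103 that were 1.5-fold apart. As a technical yardstick, 2024 genes had at least 2 probe sets with a signal of 200, and within a gene the pooled SD of their differences was 0.20. Over all of these probe sets the SD was 0.225. Because the probe sets of a gene share the same 2 arrays, this yardstick leaves out variation between arrays, cultures and animals.

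**Figure D1:**
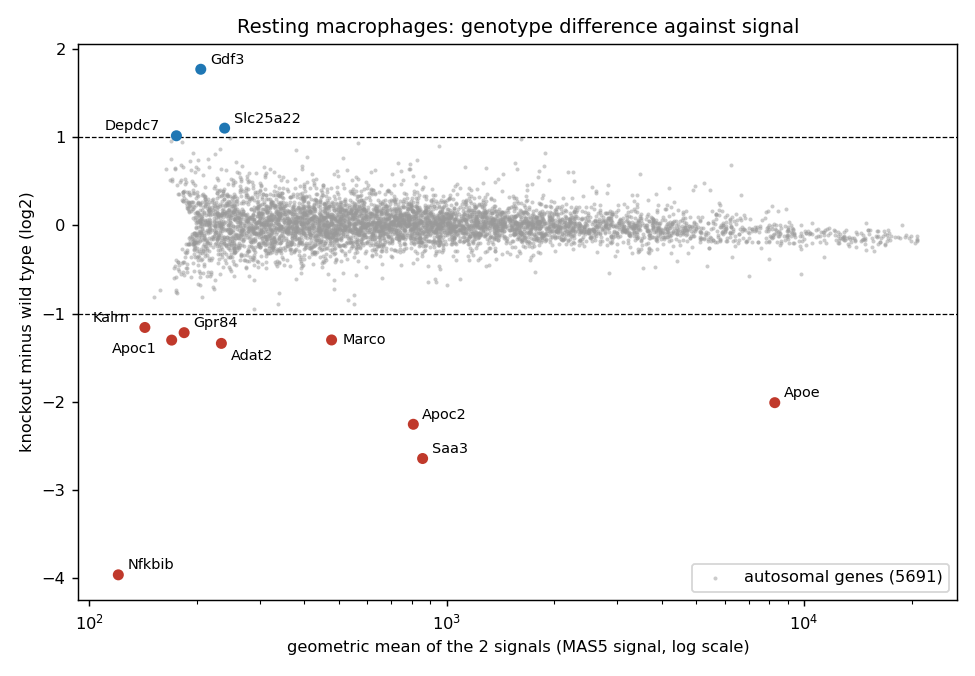
Knockout minus wild type (log2) at 0 h against the geometric mean of both signals (log axis) for 5691 autosomal genes, 1 point a gene and 1 array a genotype. Dashed lines mark 2-fold; 9 genes lie below the lower line (red) and 3 above the upper line (blue), and Apoe is the only one of the 12 with a mean signal over 8000.

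At 2-fold, 9 genes were lower in the knockout (0.158% of the genes compared) and 3 were higher (0.0527%), 12 in either direction (0.211%). The 9 lower genes were Nfkbib, Saa3, Apoc2, Apoe, Adat2, Apoc1, Marco, Gpr84 and Kalrn, and the 3 higher were Gdf3, Slc25a22 and Depdc7. Of the 12, 11 are measured by a single probe set, so no second probe set speaks to them. Just inside the threshold lay Kalrn (−1.16) and Depdc7 (1.02), and just outside it Pop4 (−0.94) and Ago2 (0.99). At the signal threshold, Gdpd5 was just inside with 200.1 in wild type and 181 in knockout, and Fbxo4 just outside with 199.98 and 187.

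Promoters are shown for 3 of the lower genes, chosen after their values were seen, to set the sequence before the start beside the signal of an acute phase gene, an apolipoprotein gene and a scavenger receptor gene. Each run is the 250 bases before the RefSeq start on GRCm38.p6, minus strand, 5′ to 3′. Capitals mark matches on either strand to GGG and CC with any 5 bases between (an NF-κB site), GAGGAA (the core bound by PU.1), TTGCNNAA (a C/EBP site) and AGGTCA (a nuclear receptor half-site). The windows are chr7:46715677-46715926 for Saa3, chr7:19677942-19678191 for Apoc2 and chr1:120505025-120505274 for Marco.
Saa3: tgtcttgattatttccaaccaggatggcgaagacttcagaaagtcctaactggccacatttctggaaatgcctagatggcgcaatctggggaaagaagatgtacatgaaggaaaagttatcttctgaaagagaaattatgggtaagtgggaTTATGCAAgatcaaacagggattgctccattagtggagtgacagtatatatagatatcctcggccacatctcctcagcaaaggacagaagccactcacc
Apoc2: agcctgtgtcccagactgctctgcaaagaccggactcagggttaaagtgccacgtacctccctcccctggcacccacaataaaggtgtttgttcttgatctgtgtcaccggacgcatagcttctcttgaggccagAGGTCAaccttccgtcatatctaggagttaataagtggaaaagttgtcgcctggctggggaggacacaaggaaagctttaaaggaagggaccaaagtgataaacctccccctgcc
Marco: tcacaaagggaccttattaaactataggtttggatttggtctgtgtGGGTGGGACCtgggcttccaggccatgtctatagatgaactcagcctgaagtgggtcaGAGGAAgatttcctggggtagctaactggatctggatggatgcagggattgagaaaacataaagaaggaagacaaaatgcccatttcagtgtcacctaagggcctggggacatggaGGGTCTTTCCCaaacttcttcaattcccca
Saa3 holds a C/EBP match on the minus strand of the window that begins 99 bases before the start. Apoc2 holds a nuclear receptor half-site 115 bases before the start. Marco holds NF-κB matches that begin 204, 30 and 29 bases before the start, the last 2 overlapping on opposite strands, and a PU.1 match at 146. Among 32851 RefSeq windows of this length, the NF-κB letters occurred in 45.8%, the PU.1 letters in 23.3%, the C/EBP letters in 9.56% and the half-site in 14.0%. Among the 4727 compared genes with a window the shares were 67.6%, 26.04%, 9.65% and 13.2%. Of the 12 genes, 10 had a window, and the letters were found in 5, 3, 1 and 2 of them. A match is a run of letters and no evidence of binding.

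Of the 9 lower genes, 3 encode apolipoproteins, the protein carriers of lipids. Apoe, the main apolipoprotein secreted by macrophages, had a resting signal of 16644 in wild type and 4125 in knockout, a difference of −2.01. It remained the lower of the pair at 1 h (14934 and 4244) and at 5 h (14416 and 3302). Apoc2, the cofactor that activates lipoprotein lipase, read 1766 and 369 at 0 h, 1540.5 and 354 at 1 h, and 839 and 214 at 5 h, with differences of −2.26, −2.12 and −1.97. Apoc1, an apolipoprotein that inhibits lipid transfer, read 267 and 108 at rest, 179 and 97.7 at 1 h, and 184 and 24.2 at 5 h, with differences of −1.30, −0.87 and −2.93. These 3 genes lie in one cluster on chromosome 7.

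Of 25 lipoprotein and cholesterol genes measured, 22 reached 200, of which these 3 were 2-fold lower (0.158% of all genes compared were) and 0 were 2-fold higher (0.0527%). Of the 22, 19 had a difference below 0, and their median was −0.13, against 0.00 over all 5691. None of the other members of the list passed 1.5-fold. Fabp4, a fatty acid carrier, read 1039.5 and 757 (−0.46), and Fdft1, squalene synthase, 319 and 241 (−0.40). Lpl, lipoprotein lipase itself, read 16397 and 13507 (−0.28), and Pltp, the phospholipid transfer protein, 15349 and 14832 (−0.05). Abca1, the cholesterol exporter, read 7439 and 8268 (0.15), and Npc1, which moves cholesterol out of lysosomes, was the list's highest (1029.9 and 1238; 0.27). Apoc4, of the same cluster, was too dim to be compared (5.94 and 56.9).

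Saa3, the serum amyloid A gene expressed by macrophages, gave a resting signal of 2145 in wild type and 343 in knockout, a difference of −2.65. At 1 h the signals were 6933 and 2237 (−1.63), and at 5 h 17481 and 15703 (−0.15). The gap between genotypes was thus wide at rest and small after 5 h, with a rise of 8.15-fold in wild type and 45.8-fold in knockout; both rises share the resting arrays with the difference. Of 15 acute phase and complement genes, 7 reached 200 and Saa3 was the only one past 2-fold (0.211% of all genes in either direction), with a median of −0.04 that became 0.04 after quantile normalization. C1qa (11902 and 11637), C1qb (16703 and 15255) and C1qc (16844 and 14226), the subunits of complement C1q, were bright in both genotypes. Hp, haptoglobin, read 182 and 75.0 and did not reach 200.

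Of the scavenger, Fc and lectin receptors, Marco, which binds bacteria and particles, had resting signals of 748 (wild type) and 304 (knockout), a difference of −1.30. It read 724 and 300.5 at 1 h and 3027 and 2276 at 5 h. Among 16 such genes that reached 200, Marco was the only one past 1.5-fold (1.81% of all genes in either direction), and the median was −0.08. Cd36, the receptor for oxidized lipoproteins, read 11904 and 8140.0 (−0.55), and Clec4e (Mincle) 3439 and 2372 (−0.54). Mrc1, the mannose receptor, read 6653 and 7035.5, and Msr1 1874 and 1858.

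Gpr84, a receptor for medium-chain fatty acids, read 281 and 121 at rest (−1.22), 3715 and 2735 at 1 h and 6526 and 4006 at 5 h, so its knockout signal was the lower at each time. Adat2, the catalytic subunit of a tRNA adenosine deaminase, read 373 and 147 at rest (−1.34), 273 and 118 at 1 h and 132 and 65.4 at 5 h. Adat2 lies on chromosome 10 and Gpr84 on chromosome 15. Kalrn read 214 and 95.9 at rest, and its order turned at 1 h (57.2 and 106). Its probe set is one that can hybridize to several transcripts, and its other 2 probe sets were under the floor on both arrays.

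Gdf3, a ligand of the TGF-β family, had the largest excess in the knockout among the 5691 autosomal genes compared. Its resting signals were 111 in wild type and 379.6 in knockout, followed by 103 and 337 at 1 h, and 83.8 and 195 at 5 h. The differences were 1.77, 1.71 and 1.22, and the resting signal was 3.42-fold higher. Slc25a22, a mitochondrial glutamate carrier, read 163 and 351 at rest (1.10) but 242 and 298 at 1 h and 2352 and 2224 at 5 h. Depdc7 read 123 and 250 at rest (1.02), 108 and 84.6 at 1 h, and was under the floor on both arrays at 5 h.

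**Figure D2:**
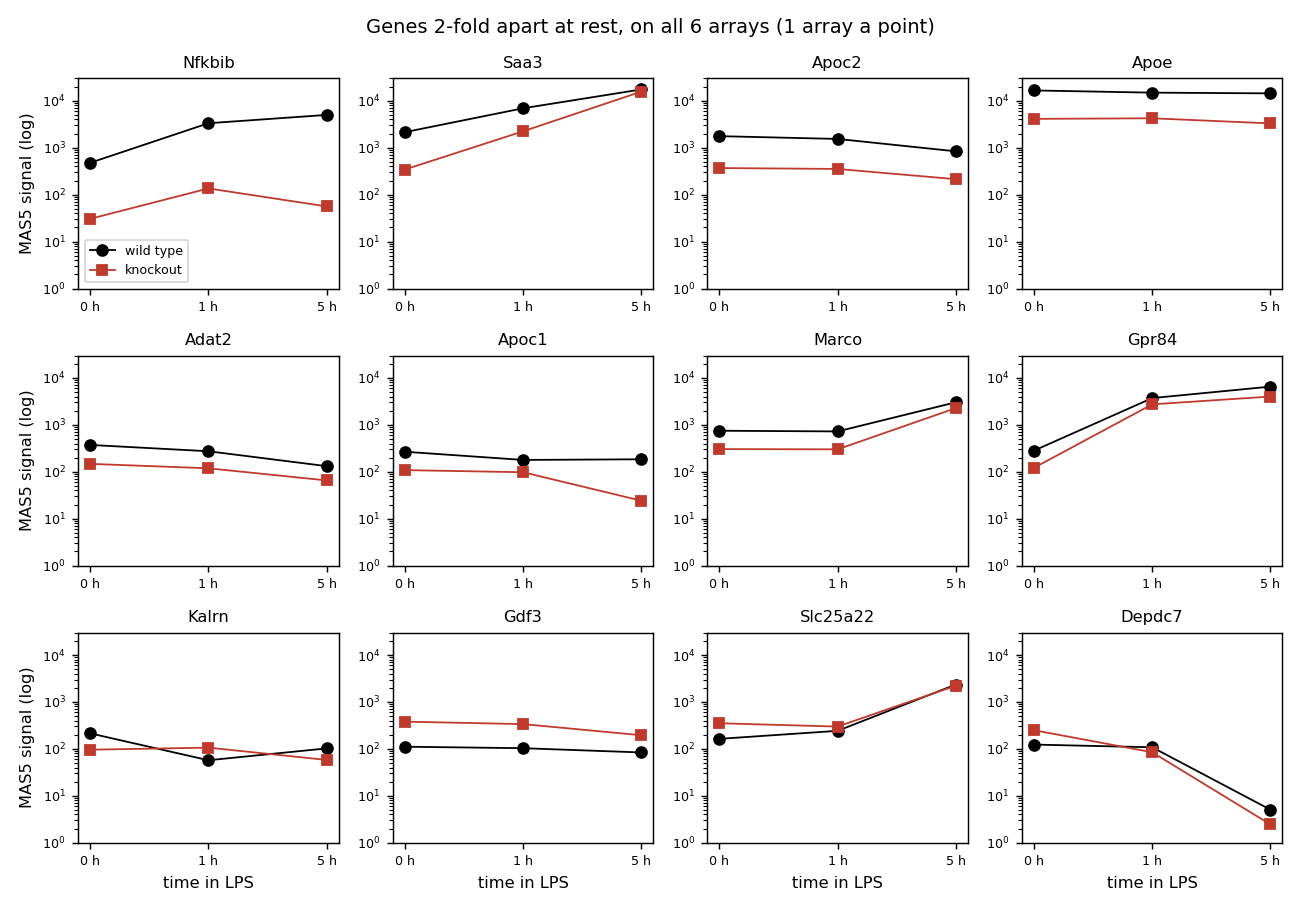
MAS5 signal (log axis) of the 12 genes at least 2-fold apart at rest, at 0, 1 and 5 h of LPS, with 1 array a point, for wild type and knockout. Apoe, Apoc2 and Nfkbib stay apart at all 3 times, whereas the Saa3 signals come close by 5 h (17481 in wild type and 15703 in knockout).

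The arrays at 1 h and 5 h, which were not used to choose the members, gave further readings. Of the 9 lower genes, 6 were 2-fold lower at 1 h, where 0.351% of all genes were, and 5 at 5 h, where 1.48% were. Adat2, Apoc2, Apoe and Nfkbib were 2-fold lower at all 3 times. Of the 3 higher genes, Gdf3 alone was 2-fold higher at 1 h (background 0.246%) and at 5 h (background 0.826%). At a threshold of 1.5-fold, 39 genes were lower at rest (0.685%) and 64 higher (1.12%), 103 in all (1.81%). Of the 39, 13 were 1.5-fold lower at 1 h (background 2.04%) and 11 at 5 h (background 6.29%), and 7 at both, namely Adat2, Apoc1, Apoc2, Apoe, Mark4, Mrps12 and Nfkbib. Of the 64, 11 were 1.5-fold higher at 1 h (background 1.6%) and 9 at 5 h (background 3.3%), and Cdk5rap1, F5, Gdf3 and Thbs1 at both. Later arrays may share an animal or culture with the resting ones, so a repeated difference may be one of these samples.

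The next lower differences did not all recur at the later times. Pop4, a subunit of RNase P, read 401 in wild type and 208 in knockout (−0.94), with −0.20 at 1 h and 0.51 at 5 h. Vamp2, a vesicle SNARE, read 460.4 and 247 (−0.90), with −0.11 and −0.05. Acod1, the enzyme that makes itaconate, read 748 and 405 (−0.89), with −0.04 and −0.34. Mrps12, a mitochondrial ribosomal protein, was lower at each time, with 713 and 396 at rest (−0.85) and differences of −1.56 and −0.71 later. The single probe set of Mrps12 can hybridize to several transcripts. Gpr85, an orphan receptor, read 200.3 and 114 (−0.81), with −0.60 and 0.02, and its other probe sets, both under 200, gave −0.48 and 0.31 at rest. Safb, a chromatin scaffold factor, read 723 and 419.8 (−0.78), with −0.11 and 1.02. Its other probe set read 172 and 185 (0.10), so the resting direction turned with the probe set. Birc5 (survivin), which acts in cell division, read 229 and 135 (−0.76), with −0.69 at 1 h and 1.22 at 5 h. Ercc2 (−0.81 at rest) gave 0.09 and −0.53 at these times, and Traf7 (−0.77) gave 0.17 and −0.04. Oxld1 (−0.76) gave −0.24 and 0.07, and Smarcd1 (−0.74) gave 0.24 and −0.81.

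On the higher side, some of the next genes were higher at all 3 times and others were not. F5, coagulation factor V, read 131 in wild type and 253 in knockout (0.95), with 1.32 at 1 h and 1.01 at 5 h. Cdk5rap1, a tRNA-modifying enzyme, read 122 and 236 (0.95), with 1.01 and 1.44. Cd86, the costimulatory ligand of CD28, read 393 and 671 (0.77), with 0.89 and 0.52. These 3 genes were higher in the knockout on each pair of arrays. So were Ms4a4c, a membrane protein (407 and 781 at rest; 0.94, 0.52 and 0.16), Cytip, a regulator of cell adhesion (1419 and 2507; 0.82, 0.87 and 0.36), and Jarid2, a cofactor of Polycomb repressive complexes (636 and 1067; 0.75, 0.26 and 0.80). The pseudogene Gpr137b-ps read 1149.9 and 2276 (0.98), with 0.28 and 0.05, and signal from the related gene may be shared with it. Ago2, the slicer of RNA silencing, read 176 and 351 (0.99), with −0.10 and −0.06. Fkbp8, a mitochondrial immunophilin, read 697 and 1303 (0.90), and its order turned at 1 h (1220.3 and 843; −0.53), with −0.07 at 5 h. Slc20a2, a phosphate transporter, read 147 and 259.8 (0.83), with 0.43 and −0.12, and its other probe set read 108 and 102 at rest (−0.09). Ramp1, a subunit of the CGRP receptor, read 310.1 and 532 (0.78), with 0.64 and −0.30. Nsmaf (0.87 at rest) was higher at both later times, with 0.15 and 0.43. Ddx49 (0.86) gave 0.28 and −0.07, and Fuom (0.82) gave −0.32 and −0.52. Thbd (0.76) gave 0.47 and −0.71, its knockout signal being under the floor at 5 h. Ppcs (0.75) gave −0.71 and 0.16, and Itga4 (0.74) gave 0.12 and −0.40. Among the largest differences either way, 5 genes have at least 2 probe sets that reached 200, namely Cd86, Cytip, F5, Jarid2 and Ms4a4c, and every such probe set was higher in the knockout. The smallest differences of Cd86 (0.56), Jarid2 (0.48) and Ms4a4c (0.49) were under 1.5-fold, and those of Cytip (0.67) and F5 (0.95) past it. Over all genes with several such probe sets, 102 had 1 or more at least 1.5-fold apart. In 1 gene all were 1.5-fold lower, and in 5 all were 1.5-fold higher.

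**Figure D3:**
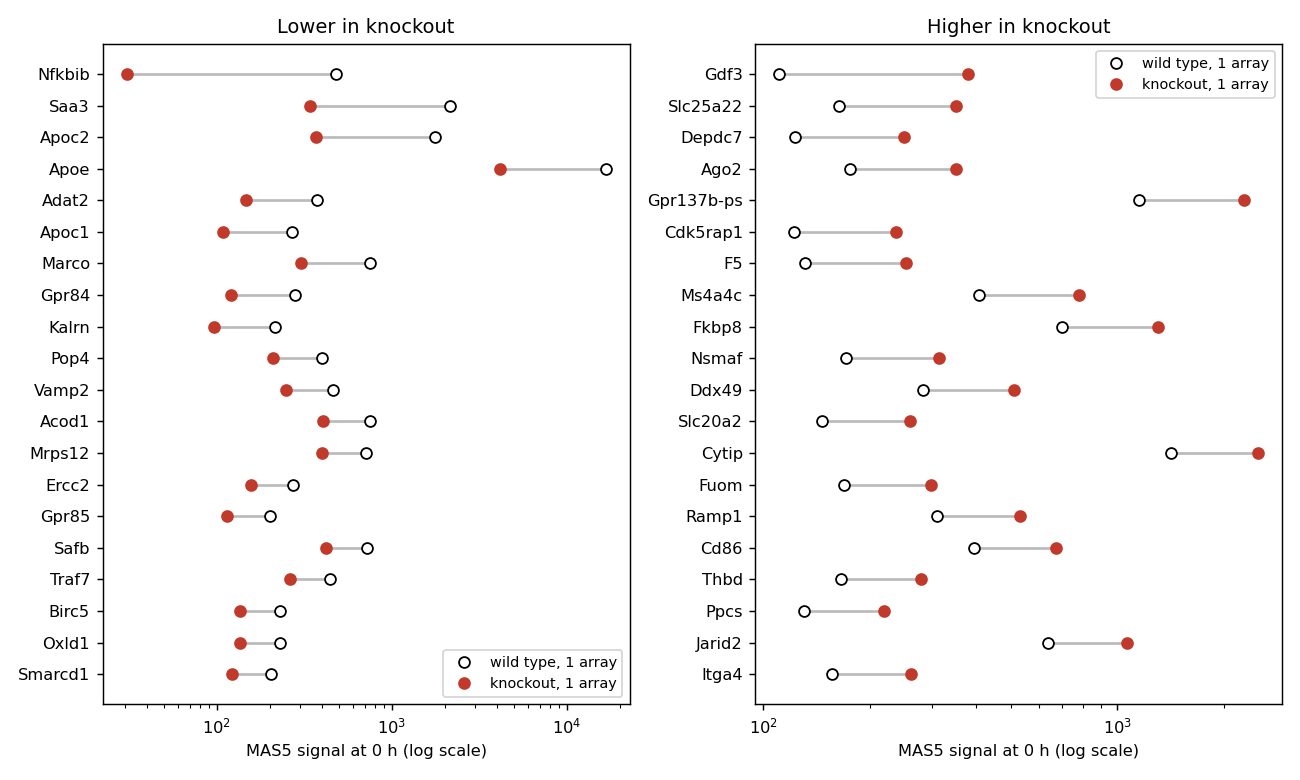
Signals (log axis) at 0 h on the wild-type and the knockout array for the 20 autosomal genes with the largest differences each way, 1 array a genotype. The left panel runs from Nfkbib (477 and 30.5) and the right from Gdf3 (111 and 379.6).

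Interferon-stimulated genes read slightly higher in the knockout as a list. Of 34 measured, 32 reached 200, and 29 of the 32 had a difference above 0, with a median of 0.35 against 0.00 over all genes; 5 were at least 1.5-fold higher (background 1.12%) and 0 were 2-fold apart. Ifit3, an antiviral tetratricopeptide protein, read 1217 in wild type and 1997 in knockout (0.71). Irf7, the transcription factor of type I interferon induction, read 1263 and 1972 (0.64), and Iigp1, an immunity-related GTPase, 188 and 292 (0.64). Usp18, which removes ISG15 from proteins, read 423 and 654 (0.63), and Dhx58, an RNA sensor, 266 and 406 (0.61). Ifitm3 was the list's lowest (−0.12). At rest the median was 0.35 after quantile normalization and 0.31 with the arrays centred on a common median. It was 0.18 at 1 h and 0.01 at 5 h at the deposited scale, so it was near 0 on the last pair of arrays.

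Of 16 genes of the cell cycle list that reached 200, 14 were lower in the knockout, with a median of −0.27. Birc5 was the only one past 1.5-fold (1.81% of all genes in either direction). Ccnd1, cyclin D1, read 679 and 460 (−0.56), and Pcna, the replication clamp, 6961 and 5913. Rrm1, a ribonucleotide reductase subunit, was the highest (294 and 354; 0.27). The medians were −0.27 at 1 h and −0.15 at 5 h.

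Of 13 genes measured, 11 reached 200, and 1, Nfkbib itself, was 2-fold lower (0.158% of all genes), with a median of −0.06. Nfkbia, which encodes IκBα, had signals of 9183 and 8823, and Rela, the p65 subunit, 2594 and 2495. Tnfaip3 (A20), which dampens NF-κB signalling, read 215 and 143 (−0.59), and Bcl3, a nuclear IκB protein, 470 and 679 (0.53).

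Cytokines were mostly dim at rest: of 20 measured, 6 reached 200, where 5691 of all 11957 autosomal genes did. They were led by Tgfb1 (5206 and 5098), and 0 of the 6 were past 1.5-fold. Il6, Il1a and Csf2 were under the floor on both arrays. Of 22 chemokines and receptors, 11 reached 200, led by Ccl9 (15392 and 14820.4), and Cxcl10 alone was past 1.5-fold (400 and 612; 0.61). Of 12 antigen presentation genes that reached 200, Cd86 alone was. Over all genes compared, 1.12% were 1.5-fold higher and 0.685% lower, 1.81% in either direction. Of 23 macrophage lineage genes and 23 lysosome genes that reached 200, 0 were past 1.5-fold, with medians of −0.09 and −0.12 that became 0.00 and 0.01 after quantile normalization. All 21 ribosomal protein genes that reached 200 read lower in the knockout, with a median of −0.17 at the deposited scale and −0.03 after quantile normalization. The lists of iron handling, Toll-like receptor signalling, immediate early factors, translation factors, actin cytoskeleton, respiratory chain, glycolysis, antioxidants, chaperones, proteasome and housekeeping genes held 0 genes past 1.5-fold, and their medians ran from −0.12 for the actin cytoskeleton to 0.09 for the immediate early factors.

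**Figure D4:**
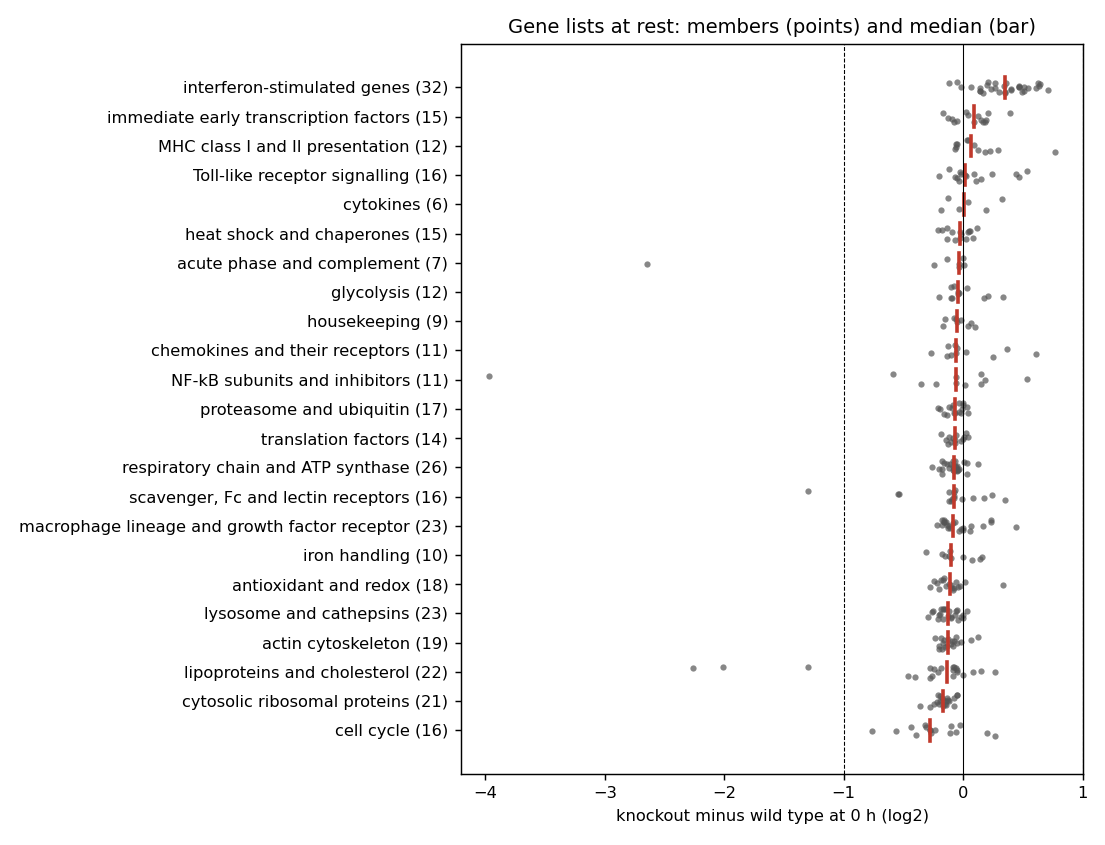
Knockout minus wild type (log2) at 0 h for each gene of the drawn lists that reached a signal of 200, 1 point a gene, with the median of each list marked. The lists of markers of other cells, in which few genes reached 200, are not drawn. The interferon-stimulated genes have a median of 0.35, the cell cycle genes −0.27, and the points left of the dashed line at 2-fold lower are Nfkbib, Saa3, Apoc2, Apoe, Apoc1 and Marco.

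The genes that differed were unevenly placed. Chromosome 7, which holds Nfkbib, has 421 of the 5691 genes (7.40%). It holds 5 of the 9 genes that were 2-fold lower and 14 of the 39 that were 1.5-fold lower, which is 3.33% of its genes, against 25 of 5270 (0.474%) on the other autosomes. On the higher side it had 7 of the 64, or 1.66% against 1.08%. The SD of the difference was 0.37 on chromosome 7 and 0.20 elsewhere, and the median was −0.02 and 0.00. Both the SD and the counts of lower genes on chromosome 7 include Nfkbib itself (−3.97). They also include Saa3 (−2.65), Apoc2 (−2.26), Apoe (−2.01) and Apoc1 (−1.30), and the SD without these genes was not computed.

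In gene order along chromosome 7, the 97 compared genes before Nfkbib held 9 that were 1.5-fold lower (Ptgir, Ercc2, Mark4, Apoc2, Apoc1, Apoe, Gsk3a, Dyrk1b and Mrps12) and 1 higher (Ppp1r37). The 100 after it held 2 lower, Pop4 and Saa3, and 0 higher. The last 223 held 2 lower, Folr2 and Sgf29, and 6 higher, Emsy, C2cd3, Fuom, Ifitm1, Irf7 and Slc25a22. Mrps12 is next to Nfkbib with 0 compared genes between them, Apoe has 43 between and Saa3 74. The labels give no breeding history of the knockout.

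**Figure D5:**
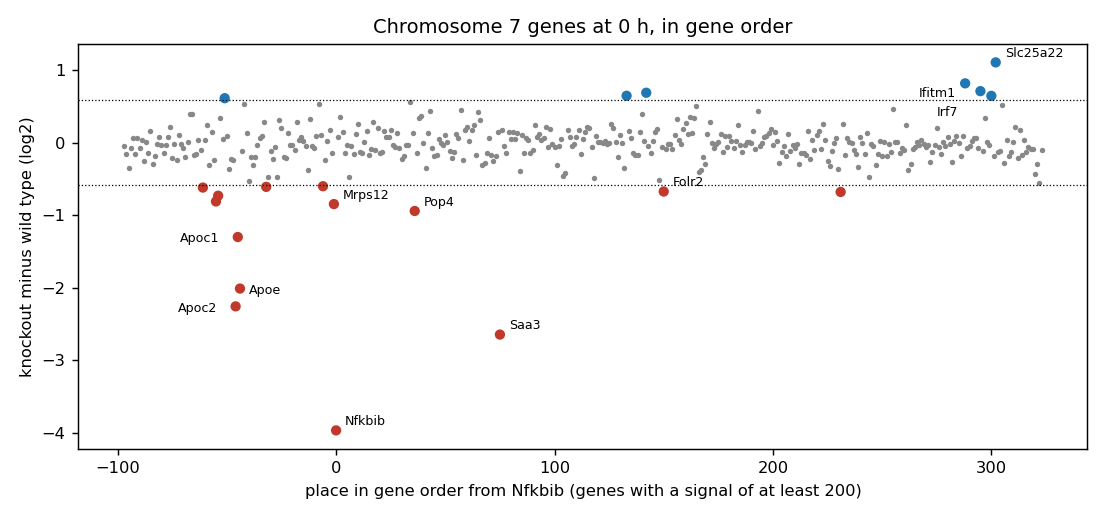
Knockout minus wild type (log2) at 0 h for chromosome 7 genes against their place in gene order from Nfkbib at 0, counting the compared genes; dotted lines mark 1.5-fold. Red points are lower and blue points higher in the knockout, and 9 of the red points lie before Nfkbib.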

How the data were processed

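RNA of 6 samples was measured on 3' arrays. Values are intensity: linear MAS5 signals computed by the authors, per the submitters' processing notes; its version and scaling target are not named there. Array trimmed means (2% off each end) were 499.9, so the deposited signals share a scale, which was kept. Of 22690 probe sets, 20380 had 1 gene symbol, 691 several, 1555 none, and 64 were controls; 20351 matched a RefSeq gene. Each gene was represented by its brightest probe set on the resting arrays. Signals under 18.2 were raised to it. Genes with a signal of at least 200 on 1 resting array were compared at 2-fold and 1.5-fold. No test was made, as each genotype and time has 1 array. The named genes are Nfkbib, the 25 brightest, the 20 largest differences each way, and in each of 30 lists the brightest and those 2-fold apart; other list members were chosen after their values were seen. The members and lists were chosen with earlier results of these data known. Of 621 list genes, 539 were measured. Scaling, floor, probe set rule, minimum signal and fold were varied. Python 3.11.15, pandas 2.3.3 and SciPy 1.17.1 were used.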

Additional observations from a re-analysis of the deposited data

Results flagged for a closer look

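Kalrn and Depdc7 differed between the genotypes in opposite directions at rest and at 1 h. Kalrn was lower in the knockout at 0 h (−1.16) and higher at 1 h (0.89), and Depdc7 was higher at 0 h (1.02) and lower at 1 h (−0.35). At 1 h all of these signals were under 200, at 57.2 in wild type and 106 in knockout for Kalrn, and 108 and 84.6 for Depdc7. Each value rests on 1 array a genotype, and the change between times was not tested.

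Among 800 probe sets that have no gene name or several and reach a signal of 200, 4 were at least 2-fold higher in the knockout at rest. Probe set 1427820_at, without a name, read 53.5 in wild type and 635 in knockout. Probe set 1439200_x_at, without a name, read 77.7 and 356. Neither of these unnamed probe sets has a chromosome here, so the limit to autosomes was not applied to them. Probe set 1426387_x_at, shared by Pisd, Pisd-ps1 and Pisd-ps3, read 926 and 2375, and probe set 1425182_x_at, shared by Klk1b9 and Klk1b22, read 137 and 292.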

How the results depend on the processing

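No paired analysis was possible because the resting groups share fewer than 2 replicate numbers, with 1 array each. A fit of genotype over the 3 times, with time as a term, was not made here, as it estimates a difference shared by all times and not the one at rest. The counts of genes depended on the minimum signal and the fold. Without a minimum signal, 407 genes were 2-fold lower in the knockout and 290 higher, against 9 and 3; with a minimum of 100 they were 39 and 26, and with 400 they were 5 and 0. At 1.5-fold they were 39 and 64, and at 3-fold 4 and 1. With X and Y genes added 12 were lower and 5 higher. With the mean of all probe sets of a gene 11 were lower and 6 higher. The 6 genes lower at rest and 1 h became 13 at 1.5-fold, 15 with a minimum of 100 and 70 without one. The 5 lower at rest and 5 h became 11 at 1.5-fold, 3 at 3-fold, 8 with X and Y genes, 3 with a minimum of 400 and 40 without one. The 5 on chromosome 7 became 14 at 1.5-fold, 10 with a minimum of 100 and 56 without one. Safb read 0.10 without probe sets that can hybridize to several transcripts, against −0.78, and the cause was not tested. Depdc7 was 0.97 with both arrays centred on a common median and 0.99 with quantile normalization, and Kalrn −0.39 with the mean of its probe sets. The other 230 of 234 values of named genes kept their direction and their side of 2-fold. This is a weak check, since a gene under 2-fold as reported kept its side however small its difference became. The probe sets of Smarcd1 gave −0.74 and 0.74 at rest, and the mean over them was still counted as kept. Many of the 234 values could not have changed. The 40 genes were picked with both signals above the floor, so a lower floor left their values as they were. For 27 of the 40, which have a single probe set, the mean of all probe sets is that same value. Quantile normalization changed the sign of the median in 8 of 29 lists. Signal limits the rest: of 6266 genes under 200 on both arrays, 27.8% were under the floor on both.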

Other observations

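Of the 103 genes past 1.5-fold at rest, a few more are given here, chosen after their values were seen and sharing no theme that was tested. Thbs1, thrombospondin 1, had resting signals of 4923 (wild type) and 7915 (knockout), then 4815 and 9301 at 1 h, and 2914 and 5004 at 5 h, so the knockout array was the brighter at each time. Tfpi, an inhibitor of the coagulation cascade, read 257 and 401 at rest and 235 and 254 at 1 h, and 117 and 166 at 5 h. Cd28, the counter-receptor of Cd86 on T cells, read 1836 and 2786 at rest, 1326 and 1784 at 1 h, and 85.9 and 201.04 at 5 h. Il6ra, the interleukin 6 receptor, read 635 and 989 at rest and 512 and 440.4 at 1 h, and 34.3 and 92.8 at 5 h. Fpr2, a formyl peptide receptor, was lower in the knockout, with 1166 and 745 at rest, 3477 and 2263 at 1 h, and 11645 and 9278 at 5 h. Folr2, a folate receptor of macrophages, read 1266 and 793 at rest, 1216 and 690.5 at 1 h, and 997 and 860 at 5 h.

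Of the 800 probe sets outside the gene table, 5 were at least 2-fold lower in the knockout at rest, all without a gene name. Probe set 1426438_at read 1390 in wild type and 0.46 in knockout, 1452077_at 763 and 2.80, and 1426439_at 511 and 20.1. Probe set 1418738_at read 309 and 60.7, and 1450864_at 913 and 377. Without a gene name these probe sets have no chromosome here, so the limit to autosomes was not applied to them. Probe set 1426438_at also read 1645 and 10.5 at 1 h, and 947 and 20.7 at 5 h. The Y-linked Eif2s3y read 799 and 3.27 at rest. Whether any of these probe sets measures an X or Y gene was not tested.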
